A study of Homo sapiens with 4 samples.

Results

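The 248 genes described here are the protein-coding genes of human chromosome 19 whose GENCODE release 44 name starts with ZNF. The annotation holds 249 such genes, and 1 of them, ZNF625-ZNF20, was left out because it has no transcript annotated as protein-coding. The comparison set is the other 1184 coding genes of the same chromosome, of which 1143 code no C2H2 finger in the representative transcript. It therefore includes some zinc finger genes with other names. The members are 248 of 1432 coding genes analysed. Their names mark them as members of the zinc finger family, and the annotation bears this out at the level of sequence, since 238 of 248 carry at least 5 C2H2 fingers in their coding sequence and 183 carry at least 10. ZNF816-ZNF321P has none. It is, with ZNF559-ZNF177, 1 of 2 readthrough names among the members, which share starts and exons with their parent genes.

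A C2H2 zinc finger is a short protein fold in which a pair of cysteines and a pair of histidines hold a zinc ion, and tandem arrays of such fingers read DNA. The family has expanded by local duplication, so that its genes stand in clusters on chromosome 19, and many of the proteins also carry a KRAB domain and repress retrotransposons by recruiting heterochromatin factors. CTCF, an insulator protein that stops moving cohesin, is itself a protein with C2H2 fingers. Cohesin is the ring complex that extrudes chromatin loops, and SMC1 is one of its core subunits.

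The study applied HiChIP, which joins proximity ligation of chromatin to immunoprecipitation, to the established lymphoblastoid (Epstein-Barr virus-transformed B cell) line HG00731, with no treatment. Cohesin was pulled down through SMC1 after fixation with formaldehyde followed by EGS, a second and longer cross-linker, and CTCF after fixation with formaldehyde alone. There were 2 replicates per target, 4 libraries in all, and the authors pooled the replicates before calling peaks and loops. The target and the fixation therefore change together and cannot be told apart, and no spread between replicates can be had from the lists, so no test was possible: intervals below are 95% intervals for counting error only. With no expression values here, the cell type was not checked against its markers.

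On chromosome 19 the lists held 3128 SMC1 peaks and 2437 CTCF peaks, and 2553 loops labelled SMC1 and 4163 labelled CTCF. A peak is a stretch of stacked reads above the local background of its own library. Its height is given as fold over that background and as the −log10 of its q-value, which grows with depth. A loop is a pair of 5 kb bins joined by more read pairs than the caller expected. The loop lists are named by their deposited labels, and the number of loops the study gives for cohesin belongs to the list labelled CTCF, so which target each loop list belongs to is uncertain. All coordinates are hg38.

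The sequence that sets these genes apart lies in 1 exon. Of 3115 fingers counted in the members' representative transcripts, 3101 (99.6%) were coded by a single exon per gene, which was the last coding exon in 243 of 247 genes. This finger exon had a median coding length of 1537 bp, against 300 bp for the longest coding exon of the other genes. Its median GC content was 40.9%, against 64.1% in those exons. Consecutive units from the finger exon of ZNF91, a KRAB repressor of SVA retrotransposons with 31 fingers, show the repeat. Each is 84 bases of coding sequence on the minus strand of chromosome 19, with the codons of the zinc-holding cysteines and histidines in capitals.
ZNF91 unit 1, chr19:23362094-23362177: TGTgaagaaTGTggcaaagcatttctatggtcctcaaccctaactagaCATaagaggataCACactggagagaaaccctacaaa
ZNF91 unit 2, chr19:23362010-23362093: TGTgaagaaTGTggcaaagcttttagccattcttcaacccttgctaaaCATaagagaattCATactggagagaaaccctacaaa
ZNF91 unit 3, chr19:23361926-23362009: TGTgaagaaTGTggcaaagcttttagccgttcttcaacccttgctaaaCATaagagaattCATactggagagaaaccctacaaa
Units 2 and 3 were identical at 83 of 84 bases (98.8%), and units 1 and 2 at 70 of 84 (83.3%). Despite such repeats, a median of 100% of the 100-base stretches of the finger exons occur once in the primary chromosomes of the genome, as in the windows around the starts. The lowest exon value was 54%.

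A CTCF motif was learned from the 3000 strongest CTCF summits on odd-numbered autosomes other than chromosome 19, and reads tggCCACcAGGGGGCGCca, with capitals where 1 base dominates. It holds 15.5 bits of information over 19 bases. A match was called at 10 bits or more on either strand within 50 bp of a summit. The windows below show the CTCF summits of the 6 members with the highest −log10 q-value at a start, and 1 CTCF summit inside a finger exon. Matches are in capitals and are printed on the strand that matches.
ZNF20, chr19:12141290-12141368, minus strand: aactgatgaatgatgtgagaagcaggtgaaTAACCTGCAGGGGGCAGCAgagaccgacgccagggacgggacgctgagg
ZNF576, chr19:43594807-43594885, plus strand: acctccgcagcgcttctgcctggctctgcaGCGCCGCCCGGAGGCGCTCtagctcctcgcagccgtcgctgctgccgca
ZNF554, chr19:2819729-2819807, plus strand: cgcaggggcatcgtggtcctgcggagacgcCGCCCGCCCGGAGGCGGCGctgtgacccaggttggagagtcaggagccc
ZNF491, chr19:11797602-11797682, plus strand: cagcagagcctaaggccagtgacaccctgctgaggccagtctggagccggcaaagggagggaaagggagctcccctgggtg
ZNF700, chr19:11923698-11923778, plus strand: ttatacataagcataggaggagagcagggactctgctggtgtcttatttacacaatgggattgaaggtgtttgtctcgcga
ZNF616, chr19:52139614-52139694, plus strand: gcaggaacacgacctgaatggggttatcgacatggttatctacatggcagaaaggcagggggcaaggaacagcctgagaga
ZNF875 finger exon, chr19:37362884-37362962, plus strand: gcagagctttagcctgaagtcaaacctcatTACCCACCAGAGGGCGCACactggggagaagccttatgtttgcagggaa
The ZNF20 site scored 18 bits, ZNF576 11 bits and ZNF554 10.3 bits. The windows of ZNF491, ZNF700 and ZNF616 held no match at this threshold. The ZNF875 site scored 18.5 bits and lies in coding sequence.

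Most ZNF genes carried a cohesin peak at a start. An SMC1 peak lay within 1 kb of the start of a protein-coding transcript in 200 of 248 members (80.6%, Wilson interval 75.3 to 85.1), against 704 of 1184 other genes (59.5%, 56.6 to 62.2). The difference was 21.2 percentage points (Newcombe interval 15.1 to 26.4), and over all 1432 genes the share was 63.1%. The share with a CTCF peak did not differ beyond counting error, at 120 of 248 members (48.4%, 42.2 to 54.6) and 46.1% of the other genes, a difference of 2.27 points (−4.50 to 9.08) beside 46.5% over all genes. With only the representative start counted, the CTCF difference was 8.34 points (1.66 to 15.1), and with a window of 2 kb it was −4.33 (−11.1 to 2.47). Once peaks under 10 in −log10 q-value were dropped, it was −3.44 (−9.68 to 3.22). Hence the sign of the CTCF comparison depended on the window and the peak threshold, whereas the SMC1 difference stayed between 15.4 and 27.4 points under every setting tried.

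**Figure D1:**
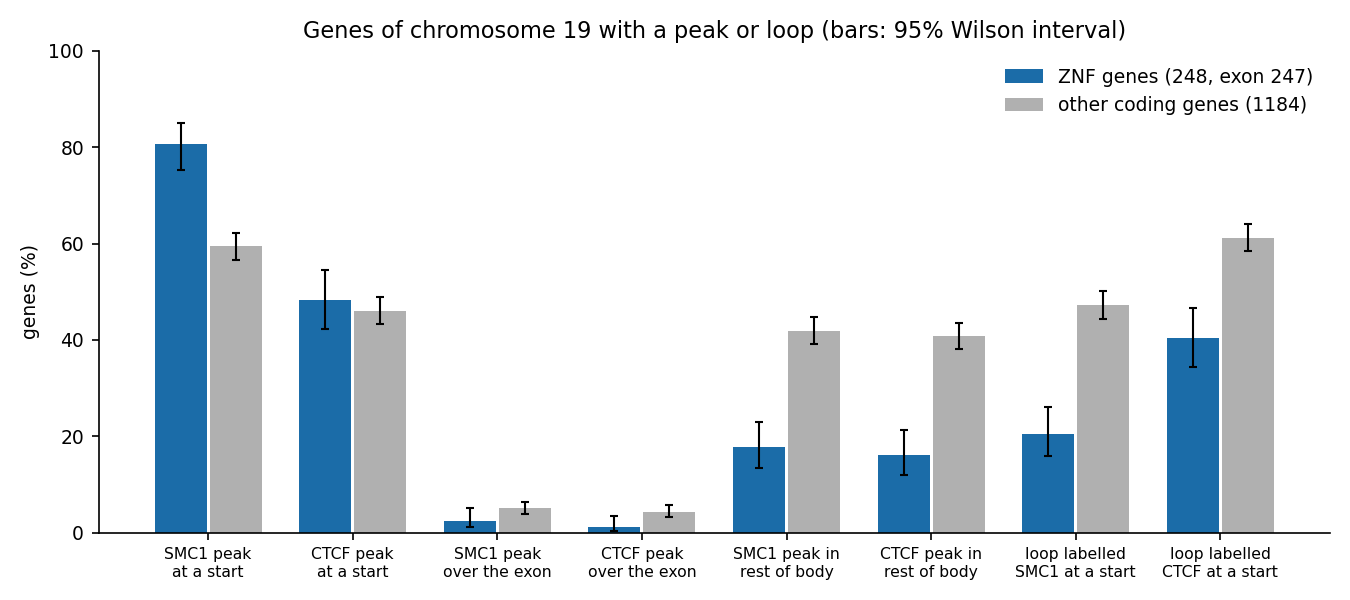
Percent of ZNF genes (blue) and of other coding genes of chromosome 19 (grey) with a peak or a loop at a start, over the finger exon or the comparison exon, or in the rest of the body. Bars are shares and error bars 95% Wilson intervals. The ZNF bar is the taller at starts for SMC1 (80.6% against 59.5%) and the shorter in bodies and for both loop lists.

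Both targets were found together at 119 members (47.98%), SMC1 alone at 81 (32.7%, 27.1 to 38.7), and neither at 47 (18.95%). Of the other genes, 42.9% had both, a difference of 5.08 points (−1.69 to 11.9), and 37.3% had neither, a difference of −18.4 (−23.6 to −12.4). ZNF580 was the single member with CTCF and no SMC1 peak. Among the other genes, SMC1 without CTCF made up 16.5%, a difference of 16.1 points (10.1 to 22.5). Put the other way, 59.5% of members with SMC1 at a start also had CTCF there, against 72.2% of the other genes, a difference of −12.7 points (−20.3 to −5.26). Members with both targets had higher SMC1 peaks than members with SMC1 alone, with a median fold of 5.93 (rank interval 5.67 to 6.25) against 4.28 (3.92 to 4.62) and a median −log10 q-value of 44.8 against 20.6. Their finger numbers overlapped, with medians of 13 (11 to 13) and 11 (10 to 13). So did the CpG content of the 500 bp centred on the representative start. There the medians of observed over expected CpG were 0.78 (0.75 to 0.81) and 0.75 (0.71 to 0.77).

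SMC1 peaks at ZNF starts were higher by fold but not by q-value. The median fold of the best SMC1 peak at a ZNF start was 5.20 (5.01 to 5.69), against 4.21 (4.09 to 4.36) at other starts, while the median −log10 q-value was 33.3 in ZNF genes and 33.03 in the others. For CTCF the median fold was 5.48 at ZNF starts and 5.41 at other starts, with overlapping intervals, and the median −log10 q-value was 19.6 (15.0 to 30.1) against 34.4 (26.2 to 41.8). The CTCF values at ZNF starts ranged widely, from a −log10 q-value of 3.80 to 394.8, with quartiles at 8.18 and 44.3.

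Peaks in ZNF genes stood close to the start. The best SMC1 summit was within 500 bp of the nearest start in 169 of 200 members (84.5%), against 63.1% of other genes, at a median distance of 136 bp (108 to 179) against 331 bp (294 to 375). The best CTCF summit was within 500 bp in 96 of 120 members (80.0%) and in 61.0% of other genes. It fell on either side of the start, downstream in 52 members and at or upstream in 68. Around the representative start, the 250 bp just downstream held 25.8 SMC1 summits per 100 ZNF genes and 7.35 per 100 other genes. The 250 bp just upstream held 21.8 and 11.4. Where both targets were present, their best summits were within 200 bp of each other in 78 of 119 members (65.5%), and in 66.1% of the other genes with both.

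**Figure D2:**
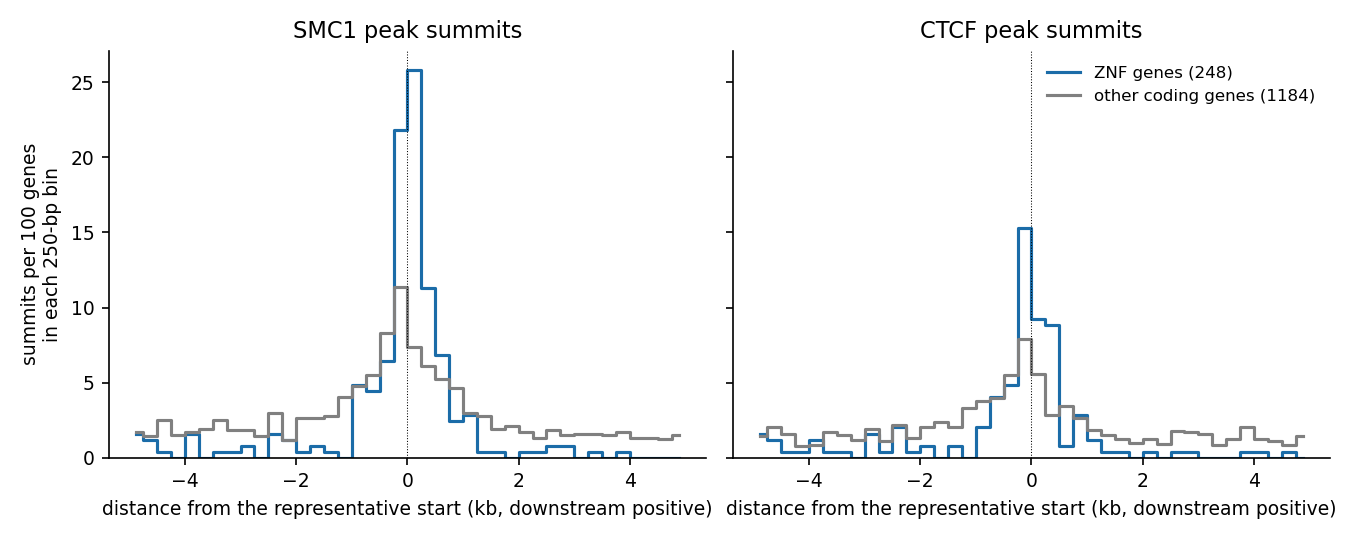
Summits of SMC1 (left) and CTCF (right) peaks per 100 genes in 250-bp bins by distance from the representative start in kb, for ZNF genes (blue) and other coding genes (grey). The ZNF profile rises to 25.8 SMC1 summits per 100 genes in the bin downstream of the start and lies below the grey line over most of both flanks, while the grey line is lower at the start.

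Some windows are shared with a neighbouring gene. Of the members, 45 have the start of another coding gene within 2 kb, against 316 of the other genes. Without such genes the SMC1 difference was 27.4 points (20.5 to 33.3) and the CTCF difference 6.13 (−1.38 to 13.7). The GC content of the 500 bp centred on the representative start also differed, with a median of 61.1% in ZNF genes and 65.3% in the others. The median CpG ratio there was 0.77 and 0.72, but the lower quartile was 0.64 in ZNF genes and 0.35 in the others. The part of base composition in the peak shares was not tested.

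The strongest sites fell in few genes. ZNF20 (chr19:12092843-12140355) ranked first for both targets, with a −log10 q-value of 351.6 and a fold of 8.20 for SMC1 and of 394.8 and 14.6 for CTCF. For SMC1 it was followed by ZNF627 (252.4), ZNF576 (214.8), ZNF763 (213.2), ZNF442 (166.6) and ZNF329 (158.8). For CTCF the next were ZNF576 (288.6), ZNF554 (266.9), ZNF491 (226.7), ZNF700 (225.3) and ZNF616 (199.9). Of these 10 genes, 6 belong to the cluster that runs from ZNF653 to ZNF791. Several of these sites are not at the start itself, since the CTCF summit lay at −999 bp from the nearest start at ZNF20, −1583 bp at ZNF576 and −1330 bp at ZNF700, where negative is upstream, but 92 bp downstream at ZNF616. ZNF576, ZNF700 and ZNF627 also have the start of another coding gene within 2 kb, so their peaks cannot be assigned to the ZNF gene alone.

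**Figure D3:**
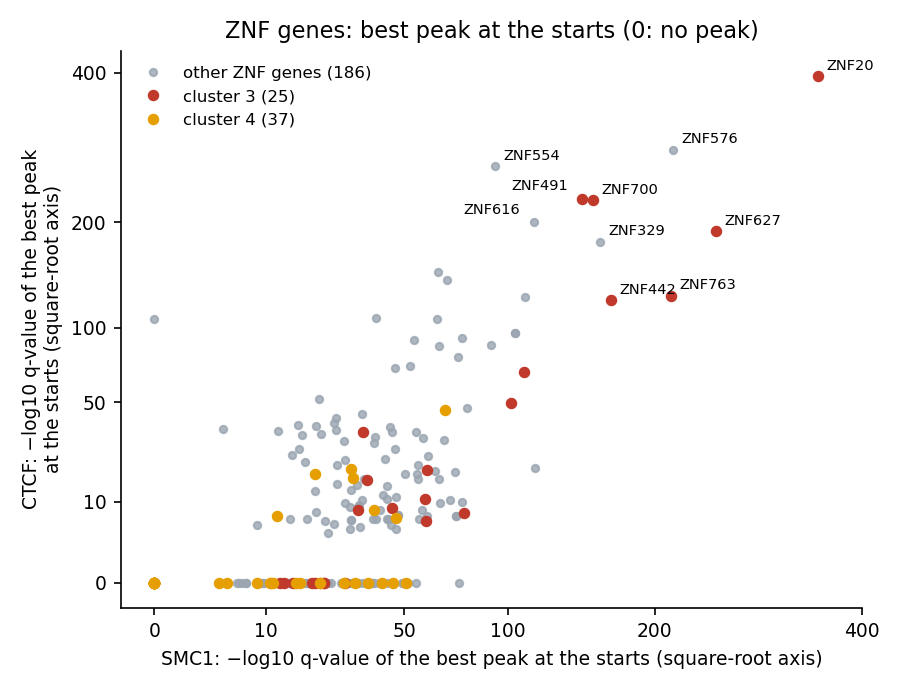
Each point is 1 of the 248 ZNF genes, by the −log10 q-value of its best SMC1 peak (horizontal) and best CTCF peak (vertical) at the starts, on square-root axes with 0 for no peak. ZNF20 stands highest on both axes, and most genes of cluster 4 (orange) lie on the horizontal axis, with no CTCF peak.

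Members with described roles were spread over these classes. ZNF91 had an SMC1 peak at its start (fold 7.04, −log10 q-value 36.6) and no CTCF peak. ZNF93, which represses LINE retrotransposons, likewise had SMC1 only (fold 3.67, −log10 q-value 17.1). ZNF350, known as a partner of BRCA1, had SMC1 only (fold 6.66, −log10 q-value 33.1).
The others named by this rule had both targets, apart from ZNF541. ZNF274, which brings the methyltransferase SETDB1 to the finger exons of other ZNF genes, had folds of 5.38 for SMC1 and 9.46 for CTCF. ZNF224, a KRAB repressor, had 7.10 and 9.57. ZNF473, a factor of histone pre-mRNA processing, had 6.67 and 4.34.
The imprinted gene ZNF331 had folds of 6.38 and 4.22, and ZNF43 had 5.07 and 5.97, each from peaks at different starts of the gene. ZNF180 had 4.76 and 7.08. ZNF541, a gene of male meiosis, had no peak of either target at a start, although 4 SMC1 peaks and 1 CTCF peak lay in the rest of its body.

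Finger exons were almost empty of peaks. Away from any start, an SMC1 peak overlapped the finger exon in 6 of 247 genes (2.43%, 1.12 to 5.20) and a CTCF peak in 3 (1.21%, 0.414 to 3.51). The longest coding exons of the other genes had 5.07% and 4.39%, giving differences of −2.64 points (−4.56 to 0.344) for SMC1 and −3.18 (−4.72 to −0.663) for CTCF. When the summit itself had to lie in the exon, the differences were −0.323 (−1.70 to 2.23, from 1.62% and 1.94%) and −1.96 (−3.04 to 0.0287), and neither interval then left out 0. The shares over all genes were 4.61% and 3.84%. Finger exons are longer, so the density is the closer comparison: 10.9 SMC1 summits per Mb (exact Poisson interval 2.97 to 27.9) and 2.73 CTCF summits per Mb (0.069 to 15.2) in finger exons, from 4 summits and 1. The comparison exons held 55.9 (35.8 to 83.1) and 69.8 (47.1 to 99.7) per Mb. Against comparison exons of at least 1 kb, which held 53.1 and 62.8 per Mb, the difference in the share of genes was −6.84 points (−12.7 to −2.25) for SMC1 and −7.39 (−13.0 to −3.20) for CTCF.

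The peaks that did overlap a finger exon fell in few genes. For SMC1 they were ZNF439, ZNF700, ZNF490, ZNF14, ZNF780B and ZNF574, with folds between 2.28 and 3.93. Of these, ZNF574 had the highest −log10 q-value (19.95), and its summit lay 511 bp outside the exon. The ZNF14 summit also lay outside, by 51 bp. For CTCF they were ZNF875, ZNF574 and ZNF575, the last with 2 peaks, whose summits lay 122 and 127 bp outside. The ZNF574 peak was the highest of these, with a fold of 9.3 and a −log10 q-value of 77.2, and its summit lay 508 bp outside.
The single CTCF summit inside a finger exon was thus that of ZNF875, with a fold of 3.06 and a −log10 q-value of 3.89. Its motif match, printed above, covers the codons of both histidines of a finger. The ZNF875 exon holds 2 more matches of 12.6 and 15.0 bits at the same place of the repeat, with no CTCF peak over either. Each begins 44 bases after the first base of the first cysteine codon.
Across all finger exons, including parts near starts, there were 33 matches in 19 genes. In 7 matches, from ZNF875, ZNF229, ZNF497 and ZNF837, the match covered both histidine codons, and all 7 were on the coding strand with the same offset. That is a description of the repeat's letters, and 3069 finger units of this spacing were searched.

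Motif letters were scarce in finger exons as a whole. They held 84.5 matches per Mb (57.4 to 120), counted away from starts, against 789 (707 to 878) in the longest coding exons of the other genes and 671 in those of at least 1 kb. The rest of ZNF bodies held 123 per Mb and the rest of other bodies 294. The GC content of the exons, given above, moves in the same direction, and its part in the difference was not tested.

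Few summits had a match within 50 bp, whether at ZNF starts or elsewhere on the chromosome. Of 135 CTCF peaks at ZNF starts, 21 had one within 50 bp of the summit (15.6%, 10.4 to 22.6), and 0 of the windows moved by 1 kb did, which allows a share of up to 2.22%. Other coding starts had 11.9% (moved windows 3.02%), and CTCF peaks away from starts and ZNF bodies 18.2% (moved windows 2.49%). Among all CTCF peaks of the chromosome the share was 16.4%, near that at ZNF starts. SMC1 peaks at ZNF starts had a match in 12 of 233 (5.15%), and in 8 of 120 (6.67%) of those that overlapped a CTCF peak. Other coding starts had 7.92% (moved windows 4.86%) and all SMC1 peaks of the chromosome 10.6%. With a minimum of 13 bits the share at ZNF starts was 1.29%. The SMC1 peaks without CTCF had a match in 4 of 113 (3.54%), beside 0.885% in the moved windows, and at other starts these were 3.53% and 5.43%. With matches counted within 100 bp, the share was 29.6% for CTCF and 12.0% for SMC1 peaks at ZNF starts, with no moved windows to set beside it. A summit without a match by these rules may still have one farther away in its peak. Of 120 members with CTCF at a start, 23 had a match at the best peak, 12 on the strand of the gene and 11 on the opposite strand.

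The bodies of ZNF genes outside starts and finger exons were also sparse. An SMC1 peak lay there in 44 of 248 members (17.7%, 13.5 to 22.98), against 41.9% of the other genes and 37.7% of all genes. A CTCF peak lay there in 40 members (16.1%, 12.1 to 21.2), against 40.8% of the others and 36.5% of all. The differences were −24.1 points (−29.3 to −18.2) and −24.7 points (−29.6 to −18.9). ZNF genes are longer, with a median of 26.1 kb against 13.6 kb, and among genes of 10 to 50 kb the differences were −37.8 and −38.7 points. In summits per Mb, ZNF bodies held 11.01 (8.61 to 13.9) for SMC1 and 9.32 (7.13 to 12.0) for CTCF, where other bodies held 57.4 and 44.8.

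The same contrast held between the genes. Within the ZNF clusters but outside genes and starts there were 13.1 SMC1 summits per Mb (10.2 to 16.5) and 14.9 CTCF summits (11.9 to 18.6), against 37.4 and 33.1 in the rest of the chromosome outside clusters, genes and starts. At ZNF starts the density was 271 (237 to 309) for SMC1 and 152 (127 to 181) for CTCF, and at other starts 187 and 129. For SMC1, ZNF starts were therefore denser than other starts while every other compartment of the ZNF regions was sparser. In all, 38 members had no peak of either target at a start, in the body or over the finger exon (15.3%, 11.4 to 20.3), against 22.4% of the other genes and 21.2% of all, a difference of −7.06 points (−11.7 to −1.55).

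**Figure D4:**
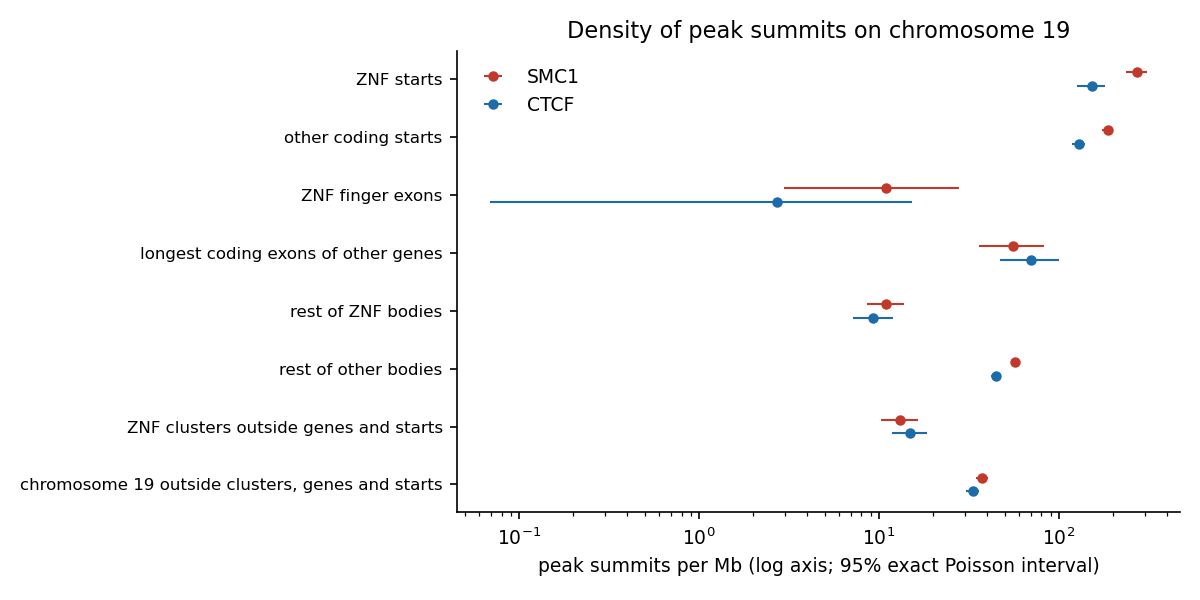
Peak summits per Mb on a log axis for SMC1 (red) and CTCF (blue), with 95% exact Poisson intervals, at starts, over exons, in bodies and between genes, for ZNF genes or clusters and for the rest of chromosome 19. ZNF finger exons (10.9 and 2.73), bodies (11.01 and 9.32) and the space within clusters (13.1 and 14.9) lie well to the left of their counterparts.

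Clusters of the family differed from one another. Runs of members whose neighbours start at most 500 kb apart formed 10 clusters of at least 5 genes, and 14 members lay outside them. Every member had an SMC1 peak at a start in cluster 3 (ZNF653 to ZNF791, chr19:11483427-12640098, 25 genes), in cluster 6 (ZNF565 to ZNF573, 26 genes) and in the small cluster 5 (5 genes). In cluster 10, near the end of the long arm, 41 of 43 members had one. The lowest shares were 8 of 14 in cluster 2 (57.1%, 32.6 to 78.6) and 22 of 37 in cluster 4 (59.5%, 43.5 to 73.7).
Cluster 4 (ZNF101 to ZNF254, chr19:19668796-24129968) is the longest, at 4.46 Mb, and includes ZNF91, ZNF93 and ZNF43. Only 7 of its 37 members had a CTCF peak at a start (18.9%, 9.48 to 34.2), whereas 16 of 25 did in cluster 3 (64%, 44.5 to 79.7) and 17 of 26 in cluster 6 (65.4%, 46.2 to 80.6). It was not alone in this, as CTCF was at 2 of 14 members in cluster 2 (14.3%, 4.01 to 39.9) and at 1 of 5 in cluster 5. The median CpG ratio at the starts of cluster 4 was 0.45, the lowest of the clusters, while clusters 2 and 5 had 0.77 and 0.85, and its part in these shares was not tested. Across the whole of cluster 4 there were 8.29 SMC1 summits per Mb (5.84 to 11.4), against 64.8 (51.0 to 81.3) in cluster 3. No loop labelled SMC1 reached a start of its 37 members, which allows a share of up to 8.11%, and 5 of them had a loop labelled CTCF.
The other clusters lay between these. Cluster 7 (ZNF575 to ZNF180) had SMC1 at 18 and CTCF at 12 of 23 members, and cluster 8 (ZNF175 to ZNF331) at 33 and 26 of 40. In cluster 9 (ZNF628 to ZNF835) these were 10 and 6 of 16, and its 6 members with CTCF, of which ZNF580 and ZNF581 share a peak, had the highest median −log10 q-value of the clusters (106.9). Cluster 1 (ZNF554 to ZNF77), on the short arm, had both targets at 3 of 5. Loops were most frequent in cluster 3, where 17 of 25 members had one labelled SMC1 and 23 of 25 one labelled CTCF, whereas cluster 10 had 3 and 11 of 43.

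**Figure D5:**
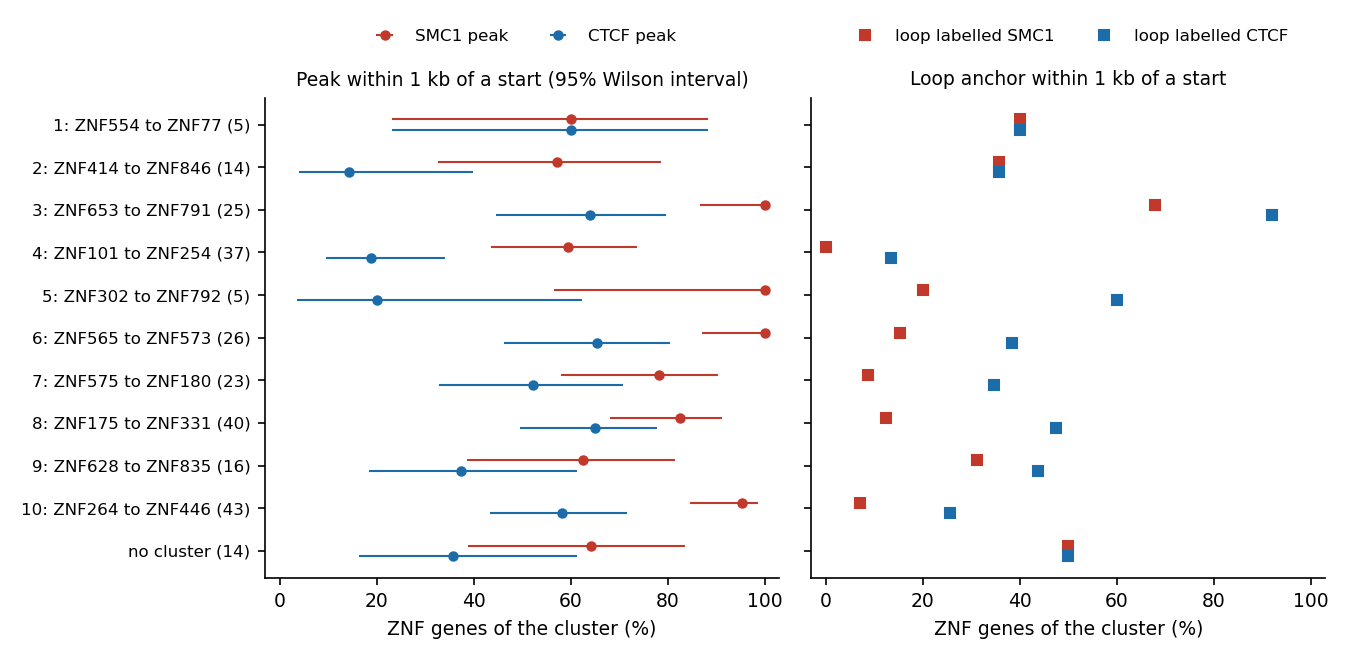
Percent of ZNF genes with a peak at a start (left, with 95% Wilson intervals) and with a loop at a start (right) in each cluster, named by its first and last gene with the number of genes in brackets. Cluster 3 has the highest loop shares (68.0% and 92.0%), and cluster 4 has no gene with a loop labelled SMC1.

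The number of fingers did not order the genes by SMC1. The share with an SMC1 peak at a start was 80.0% for under 5 fingers (10 genes), 81.8% for 5 to 9 (55 genes), 78.7% for 10 to 14 (108 genes) and 82.7% for 15 or more (75 genes). For CTCF the shares were 80.0%, 36.4%, 48.1% and 53.3%, and the interval for the 10 genes ran from 49.0 to 94.3. The extremes of the array show both states. ZNF208 (36 fingers), ZNF729 (34) and ZNF99 (21), all in cluster 4, had no peak of either target anywhere in the gene. ZNF91 (31), ZNF850 (29) and ZNF845 (26) each had an SMC1 peak at a start, with folds of 7.04, 7.28 and 5.92.

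Loops were rarer at ZNF starts than at other starts. An anchor of a loop labelled SMC1 came within 1 kb of a start in 51 of 248 members (20.6%, 16 to 26.03), against 47.2% of the other genes and 42.6% of all. For loops labelled CTCF these were 100 members (40.3%, 34.4 to 46.5), 61.2% and 57.6%. The differences were −26.6 points (−32.0 to −20.5) and −20.9 points (−27.4 to −14.1), opposite in sign to the difference in SMC1 peaks. No loop of either list touched 143 members (57.7%, 51.4 to 63.6), against 34.3% of the other genes and 38.3% of all. Of these, 103 had an SMC1 peak at a start, which is 41.5% of the members, where 9.29% of the other genes and 14.9% of all had such a peak and no loop. Loops in both lists were found at 46 members (18.5%), against 42.7% of the others and 38.5% of all.

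The gap was also present among genes with the same targets called at a start, although peak strength was not matched. Among members with both targets at a start, 54.6% (45.7 to 63.3) had a loop labelled CTCF, against 81.9% (78.3 to 85) of the other genes with both. Among members with SMC1 alone the shares were 34.6% (25.1 to 45.4) and 75.5% (69.04 to 81). For loops labelled SMC1 the corresponding shares were 25.2% and 65.7% with both targets, and 17.3% and 52.6% with SMC1 alone. With neither target, loops labelled SMC1 were at 12.8% (5.985 to 25.2) and 23.5% (19.8 to 27.7), and these intervals overlap. Loops labelled CTCF were there at 12.8% (5.985 to 25.2) and 32.8% (28.6 to 37.3). The caller takes its candidate bins from peaks, and the summit density within ZNF clusters, given above, was lower than in the rest of the chromosome. Its part in the loop shares was not tested.

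Some of the loops at ZNF starts met another ZNF start. Of 118 loops labelled SMC1 with an anchor at a ZNF start, 30 (25.4%, 18.4 to 34.0) had another member at the far end, all within the same cluster. Of 253 labelled CTCF, 86 did (34.0%, 28.4 to 40.03), 84 of them within a cluster. The 2 others joined ZNF546 and ZNF780A, which belong to no cluster. A single cluster held most of the first and many of the second, as cluster 3 accounted for 22 of the 30 and 42 of the 86. It also held 58 of the 118 and 95 of the 253 loops at ZNF starts. The remaining far ends reached a start of a coding gene without a ZNF name in 19 and 51 loops and no coding start in 69 and 116. Loops at ZNF starts were longer than those at other starts, with a median of 140 kb against 100 kb in the list labelled SMC1 and 110 kb against 80 kb in the list labelled CTCF. The lists shared 76 bin pairs, which are 64.4% of the former and 30.04% of the latter. Neighbouring bin pairs of the same gene pair were counted as separate loops, which the intervals take as independent. A like share of loops between members was not computed for any other set of genes.

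The peaks under these loops did not cover every anchor. In the list labelled SMC1, the far anchor held a CTCF peak in 75.4% of loops and both anchors held one in 58.5%, and in the list labelled CTCF these were 75.5% and 56.9%. Because the caller takes its bins from peaks, a peak in at least 1 anchor is close to given. Each of the 118 loops labelled SMC1 had an SMC1 peak in at least 1 of its 2 anchors, and likewise a CTCF peak. Each of the 253 labelled CTCF had an SMC1 peak in at least 1 of them, whereas 6 had no CTCF peak in either. At loops of other coding starts, 96 of 2454 labelled CTCF had no CTCF peak in either anchor and 0 had no SMC1 peak, while 0 of 1468 labelled SMC1 had no CTCF peak and 1 had no SMC1 peak. In both sets of genes, then, the loops without a peak of the target they are labelled for were in the list labelled CTCF, apart from that 1. With the labels exchanged, every loop at a coding start had a peak of its target in at least 1 anchor. The loop shares of the members then exchange as well.

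ZNF20 was the centre of cluster 3. It took part in 22 loops labelled SMC1 and 24 labelled CTCF, the most of any member in each, and 12 and 13 of these ended at another ZNF start. In 21 and 23 of them the ZNF20 anchor was the right-hand one, so that the loops ran towards lower coordinates, and the ZNF20 motif match is on the minus strand. The strongest loop of ZNF20 ended 85 kb away in a bin with no coding start. It had 154 read pairs (25.2 expected) in the list labelled SMC1 and 269 (23.4 expected) in that labelled CTCF. The loop between ZNF763 and ZNF20 (180 kb) had 83 read pairs against 9.76 expected in the list labelled SMC1. In the list labelled CTCF it had 182 against 13.1. These were the most read pairs of any loop between members in each list.
ZNF491, 345 kb away, was joined to ZNF20 by 51 read pairs in the list labelled SMC1 (7.15 expected), and ZNF700 by 50 (7.55 expected). In the same list ZNF491 and ZNF700 were joined by 41 and ZNF491 and ZNF763 by 40, so that ZNF491 reached each of the other 3. ZNF491 (16 loops) and ZNF763 (9) followed ZNF20 in this list. The ZNF700 anchor also lies at the start of a gene listed only by an identifier.

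Other clusters had a few such contacts. In cluster 2 the loop between ZNF121 and ZNF846 (205 kb) had 21 read pairs against 2.66 expected in the list labelled SMC1 and 61 against 3.6 in that labelled CTCF, although ZNF121 had no peak of either target at a start. In the list labelled CTCF, 2 of the 86 loops between members have starts of the same gene, ZNF790, in both bins as well, so they may join ZNF790 with itself. The strongest contacts between members of the remaining clusters, all in the list labelled CTCF, were ZNF790 with ZNF345 in cluster 6 (46 read pairs, 1 of these 2 loops), ZNF460 with ZNF543 in cluster 10 (37), ZNF101 with ZNF14 in cluster 4 (28), ZNF808 with ZNF701 in cluster 8 (27), ZNF45 with ZNF221 in cluster 7 (25), ZNF181 with ZNF599 in cluster 5 (18) and ZNF628 with ZNF580 and ZNF581 in cluster 9 (13). In the list labelled SMC1, clusters 6 and 8 had 1 each, ZNF875 with ZNF569 and ZNF570 (12 read pairs) and ZNF665 with ZNF525 (12).

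Not every hub was joined to the family. ZNF333, which lies outside the clusters, had 7 loops labelled SMC1 and 14 labelled CTCF, none of them to another member. Its strongest loop ended 115 kb away at NDUFB7, which encodes a subunit of mitochondrial complex I, with 162 read pairs (13.9 expected) and 488 (25.2 expected). The ZNF333 bin also holds a start of ADGRE3, an adhesion receptor gene, so the loop cannot be assigned to ZNF333 alone, and ZNF333 had no peak within 1 kb of its starts. ZNF580 and ZNF581 share the bins of all 11 of their loops labelled CTCF, and ZNF846 had 12. Of the 47 members with neither peak at a start, 6 had a loop labelled SMC1 and 6 a loop labelled CTCF (a 5 kb bin reaches farther than the 1 kb window).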

How the data were processed

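HiChIP of SMC1 (FA-EGS) and CTCF (FA) was measured in 2 libraries per target. For each target the authors pooled the replicates, aligned the reads to hg38, filtered and deduplicated them, and called peaks with MACS3 (3.0.1 per the submitters' processing notes, which also name bcl2fastq 2.17) without an input sample at a q-value limit of 0.01. The deposited peaks give a fold enrichment over local background (a ratio), the −log10 of the p-value and q-value, and a score. The deposited loops, from MAPS, give the read-pair count per pair of 5 kb bins, the expected signal in read pairs, a false discovery rate (a corrected p-value) and a −log10 P of the cluster. The fold, −log10 q-value, count and expected signal were used, as the authors' pooled values. Totals over chromosome 19 were 85890 read pairs in loops labelled SMC1 and 159464 in those labelled CTCF. Library depth is not given in these lists.

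Gene models came from GENCODE release 44 (hg38), with starts of protein-coding transcripts. A peak counted at an overlap of 1 bp. The finger exon codes most C2H2 fingers of the representative transcript, and exons and bodies were counted outside 1 kb of any start. Motif learning used 100 bp on either side of each summit, a width chosen after 50 bp had given a matrix of less information. The procedure recovered a planted 19-base motif in simulated random sequence, but in windows of the shorter width of 50 bp on either side. Control windows were moved by 1 kb. Python 3.11.15 with NumPy 2.4.6, pandas 2.3.3, SciPy 1.17.1, pysam 0.24.0 and Matplotlib 3.10.9 was used.

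Named genes were, per target, the 6 with the highest −log10 q-value at a start and over the finger exon, the 6 with the most loops per list, the strongest loop between members per cluster, the 3 with the most fingers with and without a peak, and 10 members with known roles. The members, lists and rules were chosen with earlier results of these data known. Alternatives covered windows, thresholds, starts, comparison genes, exons, loop labels and motif settings.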

Additional observations from a re-analysis of the deposited data

How the results depend on the processing

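Of 59 alternatives, 44 stayed within the counting interval of the reported value, 15 moved beyond it and 0 changed the direction of a difference whose interval left out 0. Chosen after seeing the data were an SMC1 list of the same length as the CTCF list, genes without a neighbouring start, comparison exons of at least 1 kb and genes of 10 to 50 kb. The SMC1 difference at starts moved to 27.4 points without neighbouring starts. The exon difference moved to −10.1 points for SMC1 and −8.58 for CTCF with exon parts near a start kept, to −4.67 for SMC1 with the last coding exon of the other genes, and to −6.84 and −7.39 with comparison exons of at least 1 kb. The body difference moved to −37.8 and −38.7 points among genes of 10 to 50 kb. With the loop lists exchanged, the share of loops between members moved to 34.0% for SMC1 and 25.4% for CTCF. The motif share at ZNF starts moved, for SMC1 peaks, to 9.44% at 7 bits, 1.29% at 13 bits and 12.0% within 100 bp, and for CTCF peaks to 8.89% at 13 bits and 29.6% within 100 bp. The causes were not tested. No paired analysis was possible because the lists pool the replicates, and for the same reason no replicate could be left out. The study states sequenced reads per target, more for SMC1 than for CTCF, but the files hold no depth per library, so an absent peak means only that none was called. Peaks of the 2 targets come from different fixations, and the lists differ in length. The counts over finger exons rest on 4 SMC1 summits and 1 CTCF summit.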
